A study of Rattus norvegicus with 24 samples.

Results

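The 10 genes described here, Hif1a, Epas1, Egln3, Slc2a1, Hk2, Pfkfb3, Ldha, Vegfa, Adm and Bnip3, are genes of the response to low oxygen and of glycolysis. They were taken by symbol from a list that was chosen with earlier results of these data known. Probes were matched to symbols through the transcript accession that the array gives each probe. All 10 were on the array, by 14 probes, and all 10 were among the 21263 genes or unnamed probes tested. mRNA was measured in the lung of 24 Fischer-344 rats of both sexes on single-colour Agilent arrays, 1 array a rat. The labels give an age of 7 to 8 weeks, and the study's methods give 7 weeks at purchase, before the exposure. Rats breathed filtered clean air (control) or hexanal, an aldehyde found in indoor air, at 600, 1000 or 1500 ppm, with 6 rats a group, 3 male and 3 female. All groups were exposed for 4 h a day on 5 days a week, over 5 weeks according to the labels, whose protocol states the concentrations in mg/m3 while the group labels state ppm, and the study's methods name a different duration. The rats are numbered as in their labels. Lung tissue was sampled, not separated cell types, so that fewer cells of a type and less RNA per cell cannot be told apart.

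Cells meet low oxygen mainly through the hypoxia-inducible factors, transcription factors made of an oxygen-regulated alpha subunit and the constant partner Arnt. When oxygen is present, prolyl hydroxylases mark the alpha subunit, which the Vhl protein then sends for degradation; when oxygen falls the subunit accumulates, enters the nucleus and binds short DNA elements with the core ACGTG or GCGTG. The regulation is thus largely of the protein, while the mRNAs of the targets rise. These targets bring glucose into the cell and through glycolysis to lactate, grow and dilate vessels, and clear mitochondria. In the lung, Epas1 is known for its expression in endothelium and alveolar type II cells, and Vegfa is made in large amounts by the alveolar epithelium.

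The promoters of the 10 genes, taken from RefSeq (GRCr8) as the 250 bases before to 50 bases after each start, were searched on both strands for ACGTG and GCGTG, since these are the letters that the factors bind. Of 33469 promoters of the same length, 41.6% held either of them, 19.3% held ACGTG, 29.7% held GCGTG, and 19.2% held at least 2 matches. Hif1a, Slc2a1, Pfkfb3, Ldha and Bnip3 held a match. None was in the window of Epas1, Egln3, Hk2, Adm or either of the 2 listed promoters of Vegfa, which says only that these letters are not in those bases. The stretch of 60 bases with the most matches is shown for each gene with one, read 5′ to 3′ on the gene's strand, with matches in capitals (ACGTG or GCGTG, or CACGT or CACGC where the match is on the other strand). CACGTG is ACGTG on both strands and is also the E-box of other factors.
Hif1a, chr6:98359648-98359707, plus strand: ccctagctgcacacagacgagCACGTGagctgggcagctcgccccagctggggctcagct
Slc2a1, chr5:138002431-138002490, plus strand: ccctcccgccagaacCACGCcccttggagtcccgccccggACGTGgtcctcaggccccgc
Pfkfb3, chr17:71944864-71944923, plus strand: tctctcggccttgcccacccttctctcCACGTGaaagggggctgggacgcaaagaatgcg
Ldha, chr1:106507982-106508041, plus strand: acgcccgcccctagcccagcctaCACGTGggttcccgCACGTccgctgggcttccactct
Bnip3, chr1:203155029-203155088, minus strand: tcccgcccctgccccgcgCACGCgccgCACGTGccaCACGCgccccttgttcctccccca
The Ldha promoter held 6 matches in its 300 bases, Slc2a1 and Bnip3 held 4 each, Hif1a 3 and Pfkfb3 2. The Ldha stretch holds an E-box and a further CACGT on its 3′ side, and the Bnip3 stretch holds an E-box between CACGC copies.

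Across the series, single arrays had 70.7% to 81.9% of their probes well above background, and replicates of a group correlated at 0.978 to 0.989. The labelled tissue was checked with 8 lung genes (Sftpc, Sftpb, Sftpa1, Ager, Aqp5, Scgb1a1, Pecam1 and Cdh5), and all 8 were well above background on every array. Heart muscle genes varied widely between rats: the summed level of 10 of them (log2) was 1.79 to 5.29 in control rats, with a median of 2.76, and the medians were 4.01 at 600 ppm, 5.73 at 1000 ppm and 3.42 at 1500 ppm. Nppa, which marks atrial muscle, was well above background on 0 control and 0 of the 600 ppm arrays, on 3 at 1000 ppm and on 2 at 1500 ppm. The summed level of 14 immediate early genes had a median of 6.19 in controls (5.49 to 6.99) and 5.36 at 1500 ppm (5.16 to 5.90), and 7 of the 14 were called lower there. Of 11 circadian clock genes, 5 were called higher and 2 lower at 1500 ppm. Of 7 tested skeletal muscle genes 2 were called higher at 1000 ppm, of 4 tested erythroid genes 1 was called lower at 1500 ppm, and none of the 8 lung genes was called at any dose. These are calls as defined in the next paragraph. Of all features, 1.29% were called higher at 1000 ppm, and 0.701% higher and 0.522% lower at 1500 ppm. The 24 arrays lay on 6 slides of 4, each of 1 sex. Control rats shared their slides with 600 ppm rats and the 1500 ppm rats shared theirs with 1000 ppm rats, so that no slide held both control and 1500 ppm.

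None of the 10 genes was called changed at any dose, where a call was a change of at least 1.5-fold with an unadjusted p under 0.05 in limma. Over all 21263 features the same rule called 0.616% at 600 ppm, 1.63% at 1000 ppm and 1.22% at 1500 ppm, so that no call among 10 genes does not set them apart from the rest of the array. The largest differences at 1500 ppm were a lower mean of Adm, the vasodilator peptide adrenomedullin, by 0.56 on the log2 scale, and a higher mean of Hk2 by 0.32. Ldha, which turns pyruvate into lactate, was the gene whose 1500 ppm and control rats did not overlap, with a difference of 0.18. At an unadjusted p under 0.05 alone, 0 of 10 genes passed at 600 ppm, 0 at 1000 ppm and 2 (Ldha and Adm) at 1500 ppm, where 4.35%, 8.97% and 6.96% of all features did. With normexp, another background correction of the same arrays, these were 1 (Ldha), 4 (Hif1a, Slc2a1, Ldha and Bnip3) and 2 (Ldha and Adm), where 3.32%, 11.3% and 5.52% of all features did. Normexp started from each spot's median signal less its local background median, with an offset of 50, in place of the deposited background-subtracted intensities. None passed a Benjamini-Hochberg adjusted p of 0.05 over all features, which 0 features, 0.0188% and 0.00470% of them did at the 3 doses. The smallest adjusted p from limma was 0.997 at 600 ppm, 0.561 at 1000 ppm and 0.551 at 1500 ppm.

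Values are log2 signals relative to the array's own 75th percentile, so that 0 is that percentile, and they are compared between rats within a gene but not between genes. The median difference of the 10 genes was 0.027 at 600 ppm, 0.0020 at 1000 ppm and 0.11 at 1500 ppm, where the median over all features was -0.0014, 0.0048 and 0.013. At 600 ppm 6 of 10 genes had a mean above control, at 1000 ppm 5 of 10 and at 1500 ppm 6 of 10, against 49.6%, 51.3% and 53.8% of all features. With normexp these were 5, 4 and 4 of 10, against 34.3%, 31.7% and 37.0% of all features. The 3 comparisons share the control rats. The 95% intervals lay inside a 1.5-fold change in either direction for 9 of 10 genes at 600 ppm, 7 at 1000 ppm and 8 at 1500 ppm. For these the data bound the change, and for the others a change of 1.5-fold lies within the interval.

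**Figure D1:**
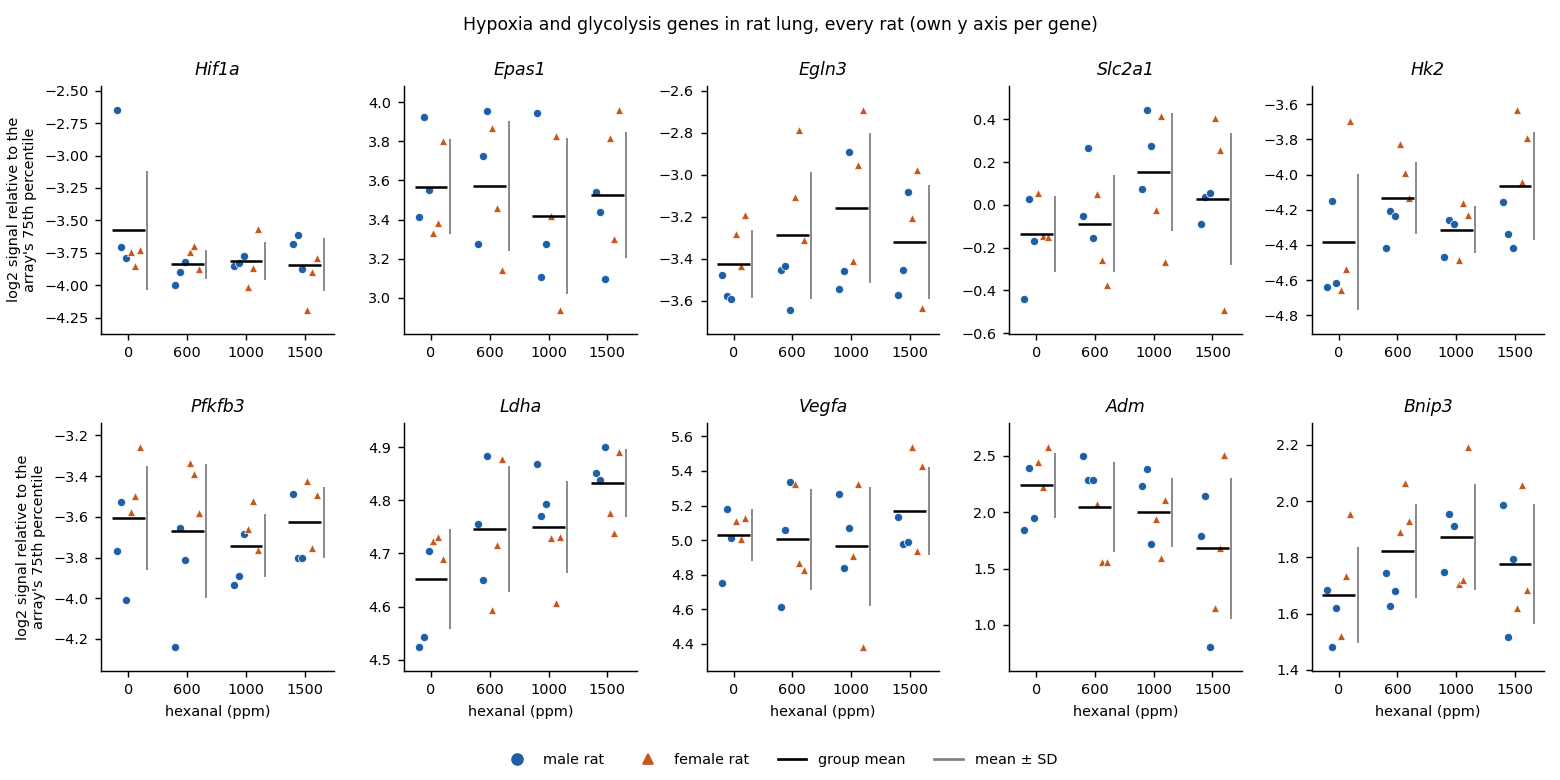
Signal of each of the 10 genes in every rat (log2, relative to the array's 75th percentile; own y axis per gene) against the hexanal concentration, with males as circles, females as triangles, black lines at group means and grey bars for the mean ± SD of 6 rats. Groups overlap in every panel except control and 1500 ppm for Ldha, and 1 control rat stands far above the others for Hif1a.

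The alpha subunits and their hydroxylase come first. Hif1a encodes the alpha subunit found in most cells, and its signal was dim and read by a single spot. In control rats it was -3.85 at the lowest, -3.74 at the median and -2.65 at the highest, the last in control rat 1. The lowest, median and highest values were -4.00, -3.85 and -3.70 at 600 ppm, -4.01, -3.84 and -3.57 at 1000 ppm. In the 1500 ppm rats these values were -4.19, -3.83 and -3.61. Control rat 1 was thus above all 23 other rats, and the other 5 controls lay within the range of the exposed rats. The group means were lower than control by 0.26, 0.24 and 0.26 (SE 0.15; limma adjusted p = 0.997, 0.649 and 0.761). Without control rat 1 the differences shrank to -0.08 at 600 ppm, -0.05 at 1000 ppm and -0.08 at 1500 ppm, so that most of the distance came from this 1 rat. With normexp the differences from all 6 controls were -0.45, -0.57 and -0.41 (limma adjusted p = 0.908, 0.400 and 0.951), and none was called. Normexp also moved the median of all features by -0.07, -0.12 and -0.05.

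Epas1 encodes the alpha subunit of HIF-2, which is prominent in lung endothelium. It ranged from 3.33 to 3.92 in controls (median 3.48), from 3.14 to 3.96 at 600 ppm (median 3.59), from 2.94 to 3.95 at 1000 ppm (median 3.35) and from 3.10 to 3.96 at 1500 ppm (median 3.49). The 4 groups overlapped almost entirely, and the differences from control were 0.0042, -0.15 and -0.04 (SE 0.18). Their order was 1000 ppm, 1500 ppm, control and 600 ppm, with no neighbours apart beyond their spread.

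Egln3 encodes a prolyl hydroxylase that is itself a HIF target, and its probe was dim. Its medians were -3.46 in controls, -3.37 at 600 ppm, -3.18 at 1000 ppm and -3.33 at 1500 ppm. The highest value of each group was -3.19, -2.79, -2.69 and -2.98 in that order, and 2, 3 and 2 of 6 exposed rats lay above all controls. The mean was 0.27 above control at 1000 ppm (SE 0.16; limma adjusted p = 0.629) and 0.14 and 0.10 above it at 600 and 1500 ppm. With normexp the differences were -0.05, -0.07 and -0.04 at the 3 doses, beside a median shift of all features of -0.07, -0.12 and -0.05. The sign of the Egln3 differences thus rests on the processing, although with normexp they lay slightly above that median shift at each dose.

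The next 4 genes run from glucose uptake to lactate. Slc2a1 encodes the glucose transporter GLUT1 and was read by 10 spots. It was -0.44 at the lowest, -0.15 at the median and 0.06 at the highest in controls. At 600 ppm these values were -0.37, -0.10 and 0.27, at 1000 ppm -0.27, 0.18 and 0.45, and at 1500 ppm -0.49, 0.05 and 0.41. At 1000 ppm 4 of 6 rats were above all controls, and the difference was 0.29 (SE 0.14; unadjusted p = 0.0539, limma adjusted p = 0.561). The exact permutation test of the 6 against 6 rats gave p = 0.0584. At 1500 ppm the difference was 0.17 and rat 38 was below all controls.

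Hk2 encodes the hexokinase that traps glucose in the cell in muscle and in growing tissue, and its probe was dim. Controls ran from -4.66 to -3.70 with a median of -4.58. Control rat 23 was the highest, and control rat 2 was next at -4.15. The 1500 ppm rats ran from -4.42 to -3.63 with a median of -4.10, and 1 of them was above all controls. The difference was 0.32 (SE 0.15; 95% interval -0.00067 to 0.64; limma adjusted p = 0.718), with 0.25 at 600 ppm and 0.07 at 1000 ppm. Without control rat 23 the differences were 0.39, 0.21 and 0.46 at the 3 doses (unadjusted p = 0.0086, 0.136 and 0.0025; limma adjusted p = 0.999, 0.721 and 0.367), and none was called. In that fit 4.26%, 7.00% and 7.95% of all features had an unadjusted p under 0.05. Leaving out the highest control can only move the difference upwards. Under normexp, with all rats, the Hk2 difference was -0.12, -0.40 and -0.01 at the 3 doses, beside a median shift of all features of -0.07, -0.12 and -0.05. The sign of the Hk2 difference thus rests on the processing. With normexp it lay below that median shift at 600 and 1000 ppm and above it at 1500 ppm.

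Pfkfb3 encodes the enzyme that makes fructose 2,6-bisphosphate, the activator of phosphofructokinase. Its medians were -3.55 in controls, -3.62 at 600 ppm, -3.72 at 1000 ppm and -3.62 at 1500 ppm, and the groups overlapped throughout. The differences were -0.06, -0.14 and -0.02 (SE 0.14). A second, dimmer probe of the gene gave -0.26, -0.30 and -0.26 (SE 0.24), on the same side and not called. With normexp the differences of the gene were -0.21, -0.42 and -0.17, further below control and not called. The median shift of all features was then -0.07, -0.12 and -0.05.

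Ldha encodes the muscle-type subunit of lactate dehydrogenase, and its promoter held the most matches shown above. It was 4.52, 4.70 and 4.73 at the lowest, median and highest in controls, 4.59, 4.74 and 4.88 at 600 ppm, 4.61, 4.75 and 4.87 at 1000 ppm. In the 1500 ppm rats these values were 4.74, 4.84 and 4.90. All 6 rats at 1500 ppm were above all 6 controls, and the rats at the 2 lower doses spread over both ranges. The difference at 1500 ppm was 0.18 (SE 0.06; 95% interval 0.05 to 0.31), which is 1.13-fold and below the 1.5-fold of a call. Limma gave an unadjusted p of 0.0072 and an adjusted p of 0.551. The exact permutation test gave p = 0.0022, the smallest that 6 against 6 rats allow. Over all features, 0.480% had control and 1500 ppm rats that did not overlap, against 1 of these 10 genes, and 26.9% had a difference at least as large. The share of features without overlap was 0.282% at 600 ppm and 0.456% at 1000 ppm, where it was 0 of the 10 genes. The 600 ppm difference of Ldha was 0.09 and the 1000 ppm difference 0.10, and the order of the means was that of the doses, although 600 and 1000 ppm lay within 0.01 of each other. Leaving out any 1 control or 1500 ppm rat kept the 1500 ppm difference between 0.15 and 0.20. With normexp the differences were wider, at 0.19, 0.25 and 0.32 for the 3 doses, and that at 1500 ppm had an unadjusted p of 0.00016 and a limma adjusted p of 0.243, still below 1.5-fold.

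Since no slide held control and 1500 ppm rats together, Ldha was followed within slides. Rats at 1500 ppm were 0.07 above the 1000 ppm rat of the same slide in both sexes. The 1000 ppm rats were 0.05 above the 600 ppm rats on the male slide and 0.13 below them on the female slide (-0.13). The 600 ppm rat was 0.17 above the controls of its slide in males, and the difference was -0.12 in females. With slide as a fixed block the 1500 ppm difference was 0.06 (unadjusted p = 0.702), and with slide as a random block it was 0.15 (unadjusted p = 0.0632).

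**Figure D2:**
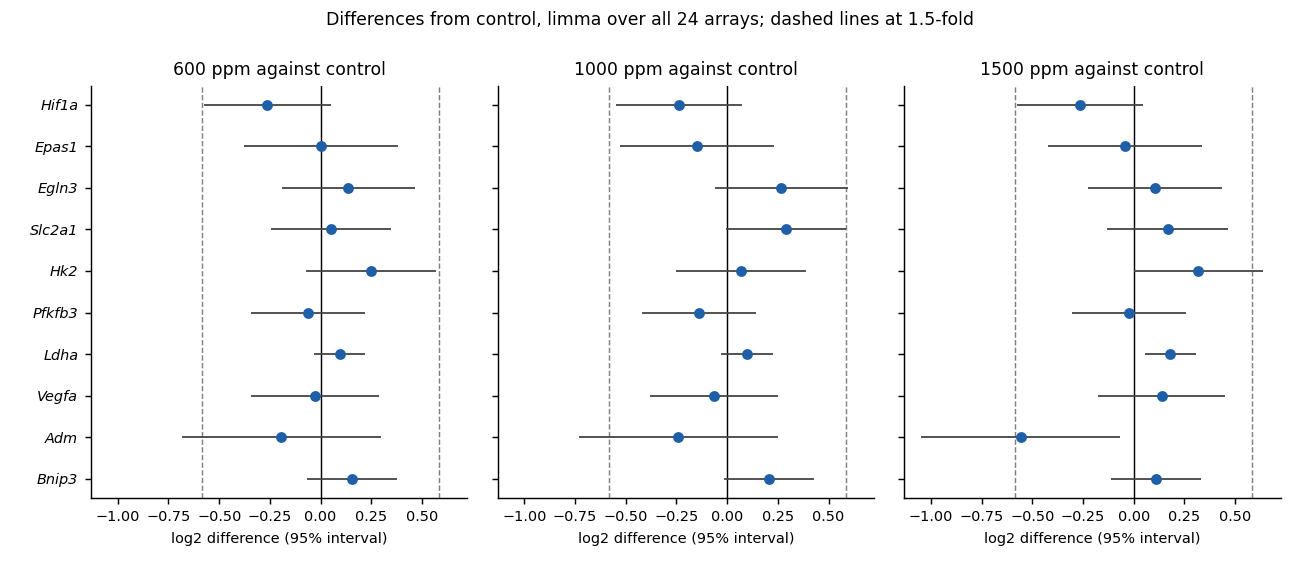
Difference of each dose from control (log2 scale, points) with 95% intervals from limma for the 10 genes, one panel a dose; dashed lines mark 1.5-fold in either direction. The intervals include 0 for all 10 genes at 600 and 1000 ppm, and leave it out at 1500 ppm for Ldha (0.05 to 0.31) and Adm (-1.05 to -0.07).

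Vegfa encodes the main growth factor of blood vessels. It lay at 4.75, 5.06 and 5.18 (lowest, median, highest) in controls, at 4.61, 4.96 and 5.34 at 600 ppm, at 4.38, 4.99 and 5.33 at 1000 ppm. In the 1500 ppm rats these values were 4.94, 5.06 and 5.54. All groups overlapped. For the probe used, the spread of the exposed groups (SD 0.26 to 0.34) was wider than that of controls (SD 0.15), a contrast that was not tested. It depended on the probe. A_64_P099893 also spread more in exposed rats (SD 0.13 in controls, then 0.23, 0.25 and 0.19). The nearly as bright A_64_P099886 spread less in them (0.22, then 0.19, 0.11 and 0.14), and A_64_P155983 was mixed (0.13, then 0.17, 0.10 and 0.11). The differences were -0.03, -0.07 and 0.14 (SE 0.15). The 4 probes of Vegfa all lay below control at 600 and 1000 ppm and above it at 1500 ppm. The furthest from 0 of their differences was -0.19 at 1000 ppm (SE 0.08; limma adjusted p = 0.528), for A_64_P155983, and none was called.

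Adm, read by 10 spots, was the member with the widest difference at 1500 ppm, but not at the 2 lower doses. It was 1.84, 2.31 and 2.58 (lowest, median, highest) in controls, 1.56, 2.18 and 2.50 at 600 ppm, 1.60, 2.03 and 2.38 at 1000 ppm. In the 1500 ppm rats these values were 0.81, 1.73 and 2.51. At 1500 ppm 4 of 6 rats were below all controls, rat 18 furthest, while rat 38 was among the high controls. The difference at 1500 ppm was -0.56 (SE 0.24; 95% interval -1.05 to -0.07), 1.47-fold lower and just short of a call. Limma gave an unadjusted p of 0.0276 and an adjusted p of 0.674, and the exact permutation test gave p = 0.0758. The 600 ppm difference was -0.19 and the 1000 ppm difference -0.24, and the 4 means were ordered by dose from control downwards, with no neighbours apart beyond their spread. Of all features, 3.32% differed at least as much at 1500 ppm. Adm was called lower without control rat 1, control rat 3, rat 17 or rat 38 (-0.64, -0.62, -0.65 and -0.72), and was -0.38 without rat 18.

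Adm was set beside the immediate early genes, whose level was low at 1500 ppm. With that summed level as a covariate, the 1500 ppm difference of Adm was -0.10 (unadjusted p = 0.714). Over the 24 rats, each taken relative to its group mean, Adm and the immediate early level correlated with r = 0.49 (rho = 0.44; permutation p = 0.0057 and 0.0337, adjusted over 71 relations 0.101 and 0.253). Without the 2 rats farthest from the median level r was 0.47, and within slide and group it was 0.62. With slide as a fixed block the 1500 ppm difference of Adm was -0.07. The part of these levels or of the slides in the result was not tested.

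Bnip3, which marks mitochondria for removal by autophagy, had medians of 1.65 in controls, 1.82 at 600 ppm, 1.83 at 1000 ppm and 1.74 at 1500 ppm. The lowest and highest were 1.48 and 1.96 in controls and reached 2.06, 2.19 and 2.06 at the top of the dose groups, so that 1, 1 and 2 rats were above all controls. The differences were 0.16, 0.21 and 0.11 (SE 0.11; limma adjusted p = 0.997, 0.582 and 0.872). None of them passed the test. With normexp they were 0.22, 0.30 and 0.18 (adjusted p = 0.908, 0.400 and 0.993).

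A linear trend on dose was fitted in limma over all 24 rats. No member had an adjusted p under 0.05, where 0.0141% of all features did, and 2 of 10 had an unadjusted p under 0.05, where 8.49% of all features did. These were Adm, with a slope of -0.35 per 1000 ppm (SE 0.15; limma adjusted p = 0.538), and Ldha, with a slope of 0.11 per 1000 ppm (SE 0.04; limma adjusted p = 0.450). The other slopes lay between -0.16 for Hif1a and 0.17 for Hk2.

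The effect of each dose was then compared between females and males, by an interaction term. No member passed an adjusted p of 0.05 at any dose. Over all features 0 passed at 600 and 1000 ppm, and 5.00% passed at 1500 ppm. At an unadjusted p under 0.05 there was 1 member at 600 ppm, where 5.00% of all features passed, 1 at 1000 ppm (9.42%) and 0 at 1500 ppm (20.1%). At 600 ppm the Adm difference was 0.30 in males and -0.68 in females (female minus male -0.98, SE 0.45; unadjusted p = 0.0432, limma adjusted p = 0.952). The male controls had a mean Adm of 2.06 ± 0.29 (SD, n = 3) and the female controls 2.42 ± 0.18 (SD, n = 3). At 1000 ppm the Ldha difference was 0.22 in males and -0.03 in females (female minus male -0.25, SE 0.11; limma adjusted p = 0.515). At 1500 ppm Ldha was higher than in controls of the same sex by 0.27 in males and 0.09 in females, and Adm was lower in both, with -0.48 in males and -0.64 in females. Since each slide held 1 sex, sex and slide cannot be told apart in these terms.

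**Figure D3:**
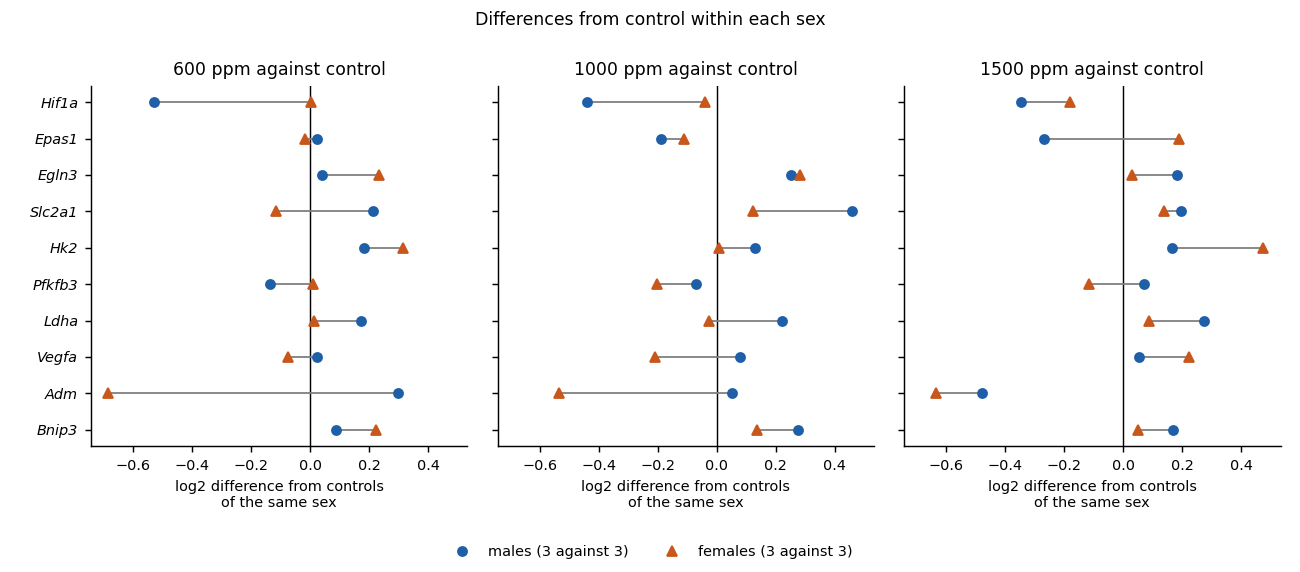
Difference of each dose from controls of the same sex (log2 scale) for the 10 genes, with males as circles and females as triangles, 3 rats against 3 in each. The widest gap is that of Adm at 600 ppm (0.30 in males, -0.68 in females), and at 1500 ppm Ldha lies above 0 and Adm below 0 in both sexes.

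The other genes of the pathway were read from 3 lists. Of 8 HIF regulators, Egln1 was not on the array, and 0 of the 7 tested were called at any dose. The differences of the 7 lay between -0.27 and 0.16, with medians of -0.04, 0.02 and 0.09 at the 3 doses. The 2 furthest from 0 at each dose were Arnt2 (-0.21) and Vhl (0.12) at 600 ppm, Hif1an (-0.13) and Arnt2 (0.09) at 1000 ppm, and Cited2 (-0.27) and Hif3a (0.16) at 1500 ppm. Arnt2 is a partner subunit, Vhl the recognition subunit of the ligase, Hif1an the asparagine hydroxylase that blocks co-activator binding, Cited2 a competitor for the same co-activator, and Hif3a a further alpha subunit. The probes of Hif1an and Hif3a were dim. None of the genes named here passed in limma (adjusted p 0.745 to 0.997). For Vhl at 600 ppm, where the spread within groups was small, the exact permutation test gave an unadjusted p of 0.0087. The same test gave 0.0368 for Cited2 at 1500 ppm, and 0.141 to 0.742 for the others named.

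Of 23 genes of glycolysis, its regulators and its glucose and lactate transporters, all 23 were tested. At 600 ppm 0 were called, at 1000 ppm 1 was called higher and at 1500 ppm 0 were called, beside 0.160%, 1.29% and 0.701% of all features called higher. At 1000 ppm 20 of the 23 had a mean above control with a median of 0.08, beside 51.3% of all features. At 600 ppm 16 did (median 0.04) and at 1500 ppm 15 did (median 0.06), beside 49.6% and 53.8% of all features. These counts are from the main processing only. With normexp 31.7% of all features were above control at 1000 ppm, and with the heart muscle level as a covariate 56.5% were. The call was Ldhb, the subunit of lactate dehydrogenase that is abundant in heart muscle. It was 0.89, 1.30 and 1.86 (lowest, median, highest) in controls and 1.35, 1.90 and 2.56 at 1000 ppm, so that the groups overlapped. Its difference was 0.65 at 1000 ppm (SE 0.21; limma adjusted p = 0.516), with 0.38 at 600 ppm and 0.49 at 1500 ppm. Aldoc, an aldolase, was 0.35 above control at 1000 ppm (SE 0.14; limma adjusted p = 0.516), short of 1.5-fold. The other genes furthest from 0 were Pfkfb1, a further form of the Pfkfb enzymes, at 600 ppm (0.23) and Hk3, a hexokinase of white blood cells, at 1500 ppm (-0.42).

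Ldhb followed the heart muscle genes from rat to rat. Relative to group means, Ldhb and the summed heart muscle level correlated over 24 rats with r = 0.71 (rho = 0.64; permutation p adjusted over 71 relations 0.0064 and 0.043), r = 0.66 in males, 0.73 in females, 0.67 within slide and group, and 0.71 without the 2 rats farthest from the median. With the heart muscle level as a covariate the Ldhb difference at 1000 ppm was 0.33 and no longer a call. For Ldha the same correlation was -0.00064, and its difference at 1500 ppm with that covariate stayed at 0.18. All 9 tested heart muscle genes had a mean above control at each dose, and 4 were called higher at 1000 ppm, beside 1.29% of all features. Their part in the Ldhb result was not tested further.

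Of 29 other HIF targets, Lox was not on the array, Car12 and Epo were not well above background on enough arrays, and 26 were tested. Of these 1 was called lower at 600 ppm, 2 at 1000 ppm and 1 at 1500 ppm, and 0 were called higher at any dose, beside 0.456%, 0.343% and 0.522% of all features called lower. Means were above control for 13, 9 and 11 of the 26, with medians of -0.0034, -0.05 and -0.09. Ddit4, an inhibitor of mTORC1 that is also induced by glucocorticoids and other stress, was 0.25, 2.06 and 3.60 (lowest, median, highest) in controls and 0.09, 0.33 and 1.46 at 1500 ppm. Controls were thus spread over more than 3 log2 units, and their lowest values lay inside the exposed range. The differences of Ddit4 were -0.88 at 600 ppm, -1.33 at 1000 ppm and -1.43 at 1500 ppm (SE 0.43; limma adjusted p = 0.997, 0.516 and 0.452), called at the 2 higher doses. The 3 male controls had the values 2.05, 2.79 and 3.60 and the 3 female controls 0.25, 0.97 and 2.07. In males the differences were -2.16 at 1000 ppm and -2.56 at 1500 ppm, and in females -0.49 and -0.30. Female minus male, this was 1.67 (SE 0.67; unadjusted p = 0.0225, limma adjusted p = 0.452) and 2.26 (SE 0.67; unadjusted p = 0.0034, limma adjusted p = 0.0584), neither past an adjusted p of 0.05.

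Edn1, the vasoconstrictor endothelin 1, was -1.27, -0.54 and 0.51 (lowest, median, highest) in controls, -1.72, -1.16 and -0.69 at 600 ppm, -1.89, -1.15 and -0.98 at 1000 ppm. In the 1500 ppm rats these values were -1.59, -0.92 and -0.77. Of the 6 controls 4 were above all 18 exposed rats, and the other 2 were among them. It was called lower at 600 ppm (-0.66, SE 0.26) and at 1000 ppm (-0.75, SE 0.26), with -0.56 at 1500 ppm. The limma adjusted p was 0.997, 0.516 and 0.707. Both calls were lost without control rat 23, the rat with the highest Edn1 (-0.45 and -0.55), and with the immediate early level as a covariate (-0.42 and -0.55).

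**Figure D4:**
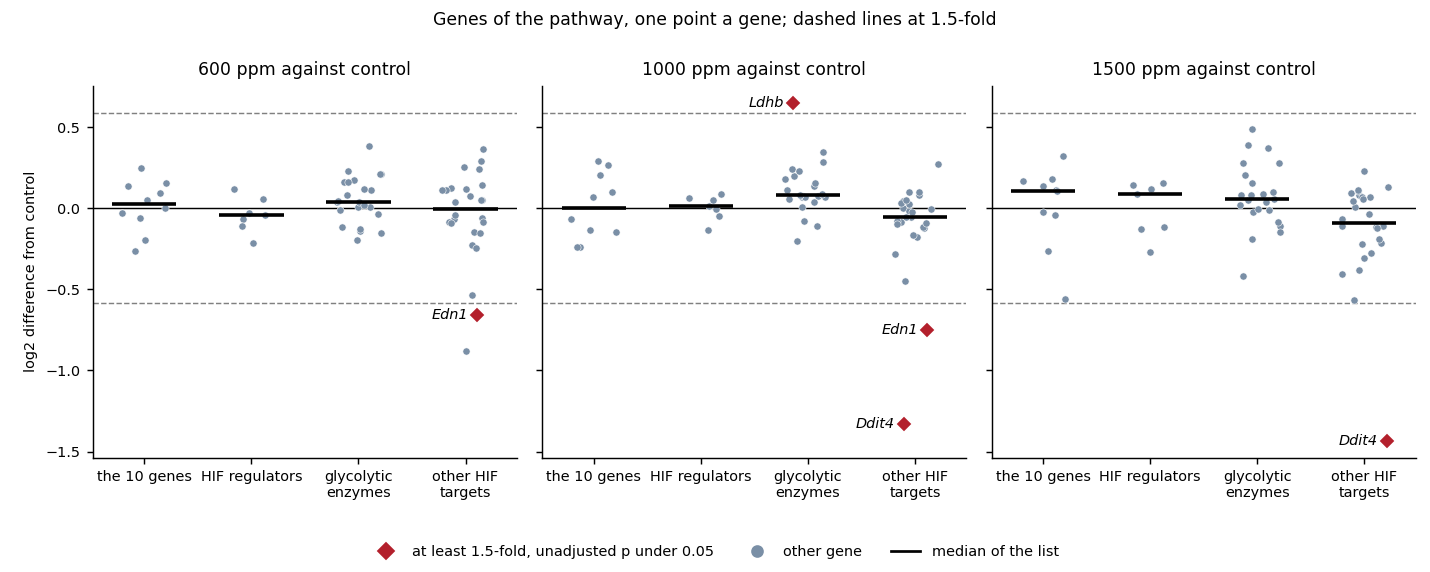
Difference from control (log2 scale) of every tested gene in the set of 10 and in the 3 pathway lists, one panel a dose, with the median of each list as a black line, dashed lines at 1.5-fold and red diamonds for genes called. The points called are Edn1 at 600 ppm, Ldhb, Edn1 and Ddit4 at 1000 ppm, and Ddit4 at 1500 ppm, and none is in the set of 10.

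How the genes varied together within groups was measured on values relative to the group mean, over 24 rats. Of the 45 pairs of the 10 genes, 23 had a positive r, the range was -0.49 to 0.86 and the median was 0.015, so that the set as a whole did not rise and fall together. After adjustment over 71 relations 2 pairs had a permutation p under 0.05. Epas1 and Vegfa had r = 0.86 and rho = 0.81, with adjusted p = 0.00071 and 0.0028, the first from the smallest p that 100000 permutations can give. The relation was 0.84 without the 2 rats farthest from the median of Epas1, 0.84 in males, 0.88 in females and 0.84 within slide and group. Among 12501 other genes with a symbol, 61 (0.488%) correlated with Vegfa at least as highly as Epas1 did. Epas1 and Vegfa correlated with the heart muscle level at r = -0.42 and -0.44 (permutation p adjusted over 71 relations 0.226 and 0.201), and within sex and group at -0.69 and -0.62. The rat with the highest 75th percentile of signal had the lowest Vegfa in controls, at 600 and at 1000 ppm (rats 1, 6 and 33), but not at 1500 ppm. The part of either in the relation was not tested, nor were other Vegfa probes. Hk2 and Pfkfb3, which act at the start of glycolysis, had r = 0.72 and rho = 0.74 (adjusted permutation p = 0.0060 and 0.0057). This was 0.67 without the 2 farthest rats, 0.63 in males, 0.66 in females and 0.80 within slide and group. Both probes were dim. In each group the rat with the lowest 75th percentile of signal had the highest value of both genes (control rat 23 and rats 26, 32 and 36). The relation was not measured with normexp, and the part of the scaling in it was not tested. Of other genes, 79 (0.632%) correlated with Hk2 at least as highly as Pfkfb3, and 423 (3.38%) with Pfkfb3 at least as highly as Hk2.

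**Figure D5:**
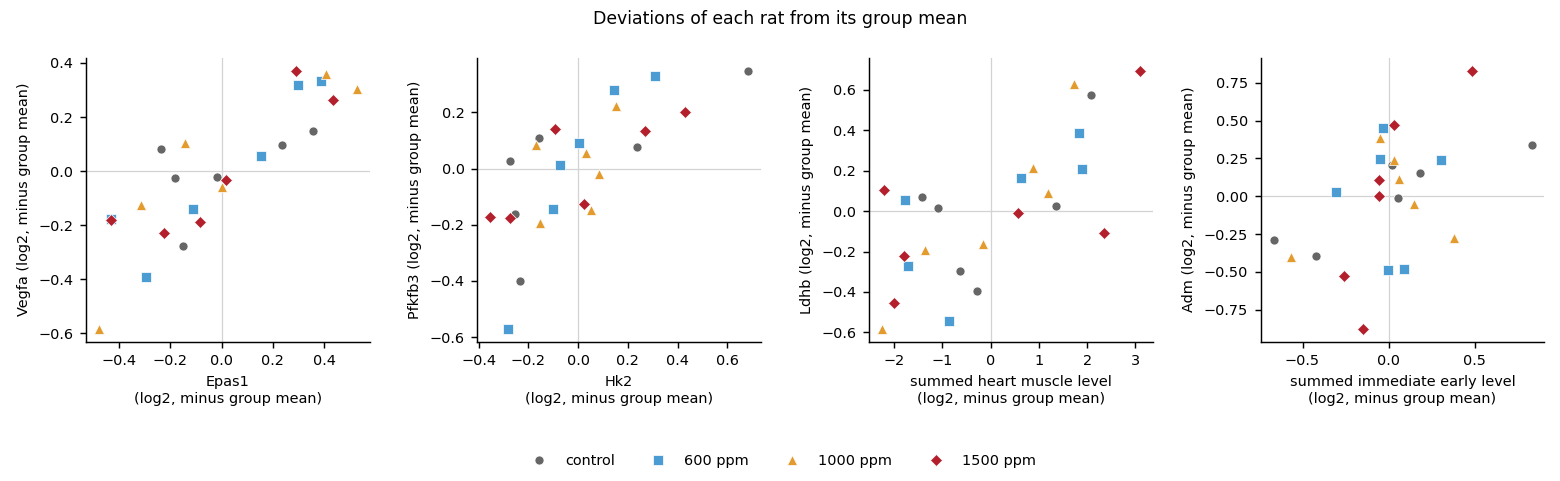
Deviation of each of the 24 rats from its group mean (log2), for Epas1 against Vegfa, Hk2 against Pfkfb3, the summed heart muscle level against Ldhb, and the summed immediate early level against Adm, with symbols by group. Points line up in the first 3 panels (r = 0.86, 0.72 and 0.71) and more loosely in the last (r = 0.49).

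The genes with a symbol whose values were most like Vegfa over the 24 rats were Wnk1 (r = 0.94), Edem3 (0.93) and Nek7 (0.92). Those most like Hif1a were Cnot11 (r = 0.81), Zng1a (0.75) and Or13a27d (0.75). Without control rat 1 these last became 0.47, 0.23 and 0.18, whereas the 3 for Vegfa stayed at 0.94, 0.93 and 0.92.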

How the data were processed

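Total RNA of lung was labelled with Cy3 and hybridised to 24 Agilent rat arrays. The authors deposited intensity values from Agilent Feature Extraction 11.5.1.1 (array design on build rn4), background-subtracted array by array with no scaling across them, and a value table equal to them within a relative tolerance of 0.001 for at least 99.2% of probes; flags of the same files were used as given. Log2 intensities were reduced by each array's 75th percentile, control and outlier-flagged spots were left out, and the spots of a probe were averaged, 42877 spots giving 30367 probes. Accessions matched 18355 probes (60.4%) to symbols through a RefSeq gene table of GRCr8, used for names and promoters. Probes well above background on at least 5 of 6 arrays of a group were kept (23624), the brightest standing for its gene (21263 features, 12502 with a symbol).

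Groups came from the labels. Each dose was compared with control in limma 3.58.1 (R 4.3.3) over all 24 arrays, with Benjamini-Hochberg adjustment over all features. Single values were also tested by two-sided exact permutation (smallest p 0.0022), and correlations by 100000 two-sided permutations within groups. A call needed 1.5-fold and an unadjusted p under 0.05. The labels name no litter or cage, so that p-values measure the spread between these rats. The number of arrays limits the precision. Alternatives were normexp background correction, quantile and median scaling, the value table unscaled, other filters, the methods' t-test, sex and slide terms, the mean of a gene's probes and leaving out each rat; the heart muscle and immediate early levels as covariates were chosen after seeing the data. Scripts were tested on simulated data. The 10 genes and the gene lists were chosen with earlier results of these data known. Besides the 10 genes, the rule named every called gene of the lists, the 2 of each list furthest from control at each dose, and the 3 genes most like Hif1a and Vegfa. The marker lists were lung identity, heart muscle, skeletal muscle, erythroid, immediate early and circadian clock genes. The methylation arrays of the study were not analysed here.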

Additional observations from a re-analysis of the deposited data

Results flagged for a closer look

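Of 84 groups of 6 rats examined (10 genes and the 11 named genes of the pathway lists in 4 groups), 3 had a rat separated from the others by more than Dixon's critical value, and chance gives about 1 in 20. Hif1a in control rat 1 was the highest of its group by 0.875 of the group's range (-2.65 against -3.70 for the next rat). Hif1an was highest in control rat 3 by 0.724 of the range and highest in 1500 ppm rat 38 by 0.859 of the range. The Hif1an probe was dim, with a mean of -4.87 in controls. None of 63 comparisons of a dose effect between the sexes for the same genes had a limma adjusted p under 0.05.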

How the results depend on the processing

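Across 38 alternatives, leave-one-out fits included, no difference of the 10 genes had an adjusted p under 0.05. The count of called members stayed at 0 at 600 and 1000 ppm. At 1500 ppm it was 1 with the authors' value table without scaling (Adm, -0.62), and 0 to 1 when 1 rat was left out. With an unadjusted p in place of an adjusted p, 1 member differed between the sexes at 600 ppm, 1 at 1000 ppm, and 2 had a dose trend. Of the calls in the pathway lists, Ddit4 was called in all alternatives at 1000 and 1500 ppm. Ldhb at 1000 ppm was not called with slide as a fixed block (0.67), without control rat 21 (0.57), without 1000 ppm rat 33 (0.53) or with the heart muscle level as a covariate (0.33). Edn1 at 600 ppm was not called by the methods' t-test, by limma on control and 1 dose, with slide as a fixed block (-0.74), with the immediate early level as a covariate (-0.42), or without control rat 1 (-0.56), control rat 23 (-0.45) or 600 ppm rat 27 (-0.55). Normexp moved the median of all features by -0.07, -0.12 and -0.05 at the 3 doses, and the members above control from 6, 5 and 6 to 5, 4 and 4. The causes were not tested. No paired analysis was possible because the groups share no replicate numbers.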
